A study of Mus musculus with 15 samples.

Results

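The sterol genes from squalene to cholesterol are the genes whose enzymes turn squalene, a linear intermediate of the pathway, into the ring structure of cholesterol. The members were taken by gene symbol from their place in the pathway, a choice made with earlier results of these data known, and 9 of them are described here, out of 55421 genes listed for the series and 18979 genes tested. They are Sqle, Lss, Cyp51, Msmo1, Nsdhl, Hsd17b7, Ebp, Sc5d and Dhcr7, in the order of the reactions. RNA was sequenced from posterior eyecups without the neural retina, which hold the retinal pigment epithelium (RPE), choroid and sclera, from mice aged 2.5 months and of both sexes. There were 4 WT (C57BL/6J) mice, 6 Tmem135 FUN025/+ mice, heterozygous for the FUN025 mutation of Tmem135, and 5 FUN025/FUN025 mice, homozygous for it, all on the C57BL/6J background. The mutation is carried in the germline, so no transgene or Cre driver restricts it to the RPE. The eyecups of one animal were pooled into 1 library, so a library stands for a mouse.

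Cholesterol is made in the endoplasmic reticulum. Squalene is oxidised and folded into lanosterol, and lanosterol is then trimmed of methyl groups and rearranged, desaturated and reduced in a series of steps. Most genes of the pathway carry binding sites for SREBP transcription factors. These are kept in the membrane by SCAP and the INSIG proteins while sterols are plentiful, and are cut loose by proteases when sterols run low. The RPE takes up lipid from the photoreceptor tips it engulfs and exports cholesterol to both of its sides.

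All 9 genes passed the filters on variance and low counts, with 224 to 1505 counts in any library. Levels are given in CPM, the read count of a gene divided by the TMM-scaled size of its library. A gene was called where its adjusted p-value over all genes tested was under 0.05 by edgeR's quasi-likelihood test. Total counts were 18094977 to 20029919 in WT, 10903183 to 13456349 in FUN025/+ and 11053535 to 15038383 in FUN025/FUN025 libraries, so every WT library was deeper than every mutant library. The 8 RPE markers had summed levels of 17057 to 20874 CPM in WT, 16938 to 22270 CPM in FUN025/+ and 16653 to 21188 CPM in FUN025/FUN025 libraries, and none of them was called in any comparison. Best1 was the lowest of them, at 2.20, 1.96 and 1.82 CPM on average in the same order. The sums do not show the direction of single RPE markers. For homozygous eyecups against WT, 7 of these 8 log2 fold changes were negative, with a median of -0.13, and Ttr was at 0.21. Between the mutant genotypes 7 of 8 were again negative, with a median of -0.18 and Ttr at 0.25. For FUN025/+ against WT, 5 of 8 were positive, with a median of 0.063. The 8 striated muscle markers were lower in both mutant groups, with summed levels of 3211 to 5119 CPM in WT, 1624 to 3551 CPM in FUN025/+ and 2159 to 2673 CPM in FUN025/FUN025 libraries, and 3 were called lower in each. The 8 photoreceptor markers summed to 225 to 1187 CPM in WT, 136 to 405 CPM in FUN025/+ and 137 to 296 CPM in FUN025/FUN025 libraries, with 0 and 1 called lower. The 5 endothelial markers summed to 738 to 855 CPM, 570 to 801 CPM and 514 to 654 CPM in the same order, with 2 and 3 called lower, and their part in the results was not tested. No marker of these lists was at 0 throughout a group's libraries. In bulk tissue, fewer cells of a type and less RNA per cell cannot be told apart. Tmem135 itself was at 63.96 ± 2.99 CPM (SD, n = 4) in WT, 75.0 ± 7.30 CPM (SD, n = 6) in FUN025/+ and 88.3 ± 4.57 CPM (SD, n = 5) in homozygous eyecups, a gene-level count that does not read the mutation and so does not check the labels.

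The promoters of the members were searched for the letters of elements known from SREBP-controlled genes. RefSeq promoter windows of GRCm38.p6, from 250 bases before to 50 bases after the annotated start, were found for 8 of the 9 members, all but Sqle, with 1 window each except for Dhcr7 with 3. Searched on both strands were the sterol regulatory element (SRE) as TCACNCCAC, where N is any base, the CCAAT box as CCAAT, which NF-Y binds, and the GC box as GGGCGG, which Sp1 binds. No window of a member held the SRE letters, which 1.24% of the 32851 windows in the table held. With at most 1 mismatch to TCACCCCAC, a match was found for Nsdhl and Hsd17b7, 2 of 8 members, against 9.82% of all windows. A CCAAT box was found for 8 of 8 members, in 8 of their 10 windows, against 37.4% of all windows. A GC box was found for 8 of 8 members, in 9 of their 10 windows, against 35.7% of all windows. Of the 3 windows of Dhcr7, 1 held CCAAT.

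A stretch of 200 bases, from 230 to 31 bases before the annotated start, is shown for 4 genes. Nsdhl and Hsd17b7 are shown because they hold the near matches to the SRE, Lss because it had the largest fold change between homozygous and WT eyecups, and Ebp because it was called in neither mutant genotype. Each is read on the strand of its gene, and capitals mark the CCAAT boxes, read as CCAAT or ATTGG, and the near matches to the SRE.
Lss, chr10:76531375-76531574, plus strand: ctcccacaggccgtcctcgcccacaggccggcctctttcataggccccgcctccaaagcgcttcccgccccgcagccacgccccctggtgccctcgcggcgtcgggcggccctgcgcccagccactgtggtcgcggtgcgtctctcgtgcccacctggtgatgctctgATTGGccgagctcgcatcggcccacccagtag
Nsdhl, chrX:72918291-72918490, plus strand: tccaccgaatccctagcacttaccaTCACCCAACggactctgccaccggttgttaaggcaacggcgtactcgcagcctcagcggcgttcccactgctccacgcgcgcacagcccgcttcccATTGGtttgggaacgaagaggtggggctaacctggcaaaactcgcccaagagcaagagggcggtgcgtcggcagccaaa
Hsd17b7, chr1:169969236-169969435, minus strand: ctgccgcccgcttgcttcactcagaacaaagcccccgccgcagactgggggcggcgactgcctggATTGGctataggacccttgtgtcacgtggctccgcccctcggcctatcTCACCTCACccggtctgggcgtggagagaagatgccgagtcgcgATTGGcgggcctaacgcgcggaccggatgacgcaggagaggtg
Ebp, chrX:8193543-8193742, minus strand: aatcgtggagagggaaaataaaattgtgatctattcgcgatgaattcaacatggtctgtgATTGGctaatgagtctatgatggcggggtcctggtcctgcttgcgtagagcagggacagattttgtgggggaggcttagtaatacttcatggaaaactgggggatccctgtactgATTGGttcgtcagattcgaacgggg

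The near match began 205 bases before the start in Nsdhl, as TCACCCAAC, and 117 bases before the start in Hsd17b7, as TCACCTCAC. The Ebp window held both a CCAAT and a GC box, and so did 1 window of each of the other 7 members searched. A match is a description of letters in these windows and not a measured binding site, and the windows do not reach elements that lie elsewhere.

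**Figure D1:**
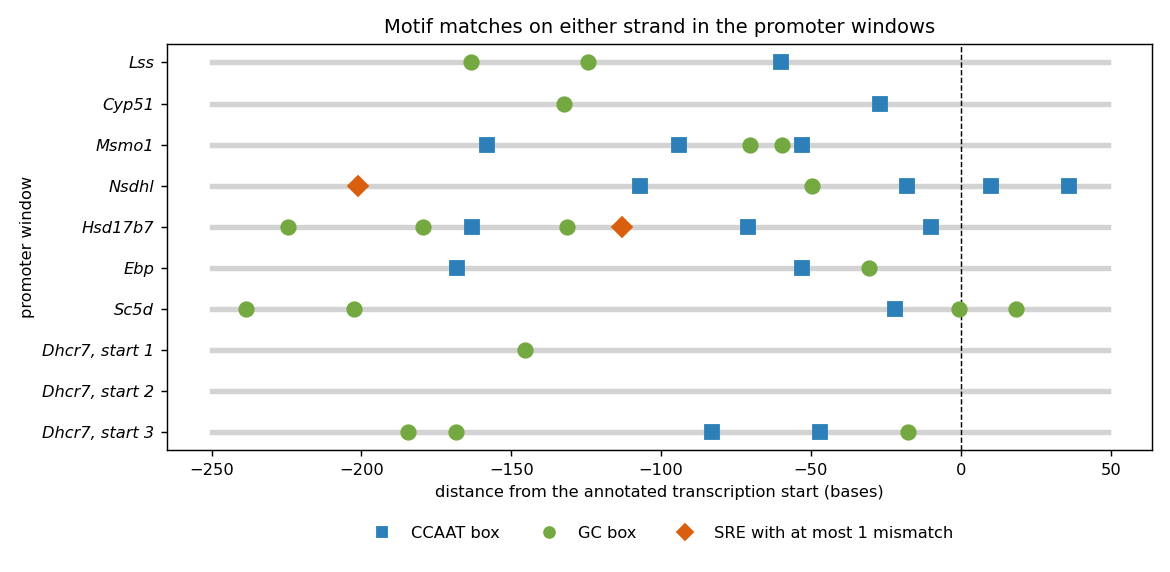
Positions of motif matches on either strand in the 10 promoter windows, with the distance from the annotated transcription start in bases on the x axis and 1 line per window on the y axis. Squares are CCAAT boxes, circles GC boxes and diamonds matches to the SRE with at most 1 mismatch. CCAAT boxes were found in 8 windows and near matches to the SRE in those of Nsdhl and Hsd17b7.

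Relative to WT, 6 of the 9 genes rose in FUN025/+ eyecups and 8 of the 9 rose in FUN025/FUN025 eyecups, and none fell. Among all genes tested, 7.09% were called higher in FUN025/+ and 7.03% in FUN025/FUN025 eyecups. As a median over the members, the log2 fold change was 0.32 in FUN025/+ and 0.50 in FUN025/FUN025 eyecups, where the medians over all genes tested were -0.0023 and -0.0071. For Sqle, Lss, Cyp51, Msmo1, Hsd17b7 and Dhcr7, 6 of 9 members, every FUN025/+ library was above every WT library, which held for 5.75% of all genes tested. For 6 of 9 members, the same 6 genes, every FUN025/FUN025 library was above every WT library, which held for 7.27% of all genes tested. Both comparisons share the WT libraries. The summed level of the 9 genes was 362 to 392 CPM in WT, 431 to 517 CPM in FUN025/+ and 469 to 584 CPM in FUN025/FUN025 libraries, so that the lowest mutant library of either genotype lay above the highest WT library.

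With the muscle and photoreceptor marker levels as covariates, the median fold changes of the members were 0.33 in FUN025/+ and 0.66 in FUN025/FUN025 eyecups and the number called was 0 and 4. In that fit Sqle had a log2 fold change of 0.48 ± 0.16 in FUN025/+ eyecups (SE, adjusted p = 0.225), where the SE without the covariates was 0.075. Lss had one of 0.66 ± 0.17 in FUN025/FUN025 eyecups (SE, adjusted p = 0.0709), where the SE without them was 0.085. A lost call here can thus go with a wider SE and not with a smaller fold change. Hsd17b7 was at 0.29 (adjusted p = 0.536) and 0.26 (adjusted p = 0.511) in that fit, both over 1.5 times smaller than without the covariates. The 4 genes still called in FUN025/FUN025 eyecups were Sqle, Cyp51, Msmo1 and Dhcr7. With the RPE marker level as the covariate instead, Nsdhl in FUN025/FUN025 eyecups (adjusted p = 0.0547) was the only call against WT that was lost.

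**Figure D2:**
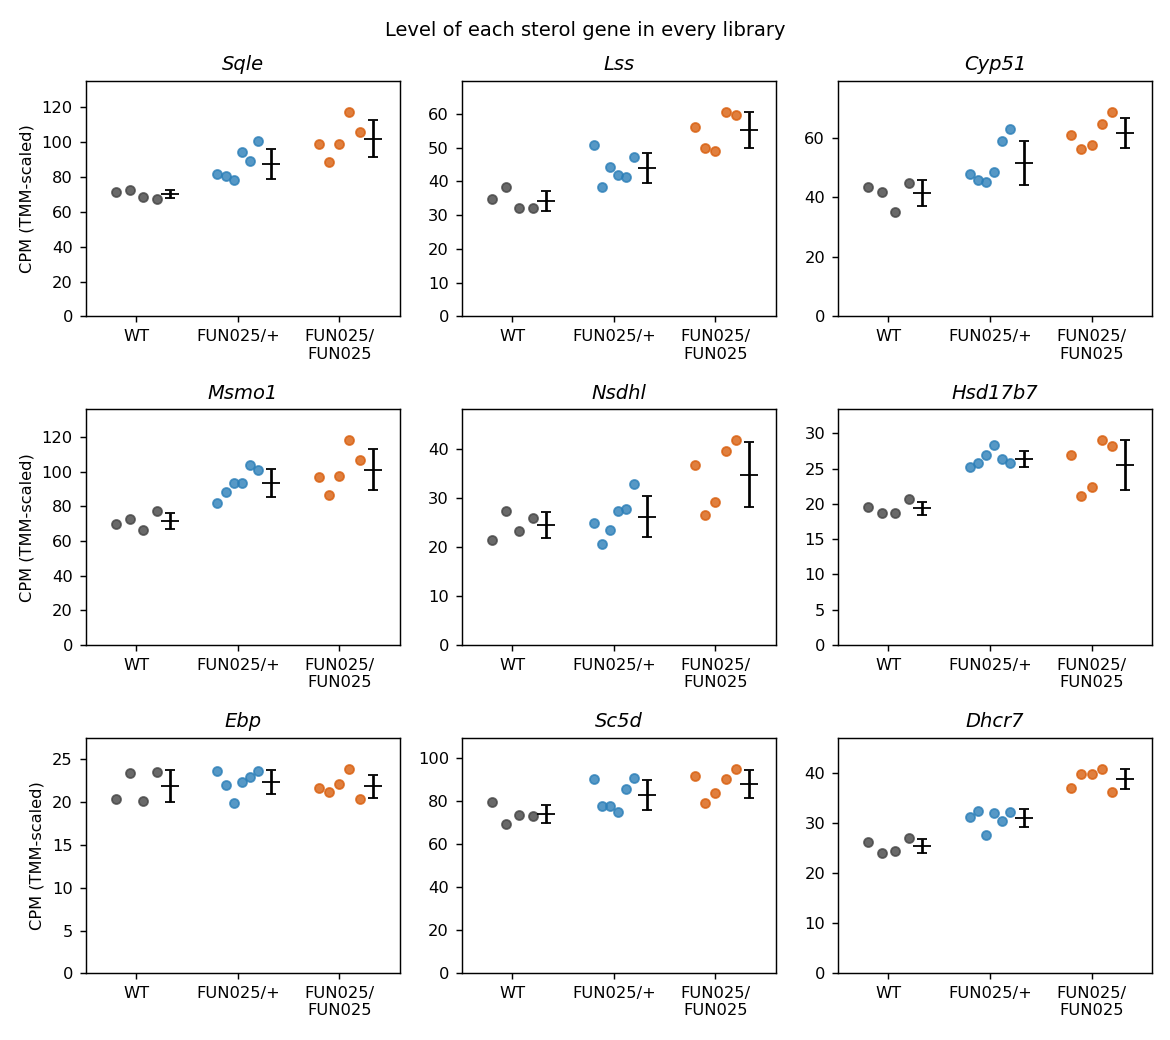
Level of each of the 9 genes in CPM on the y axis, by genotype on the x axis, with 1 point per library and a black bar for the mean ± SD (n = 4 WT, 6 FUN025/+ and 5 FUN025/FUN025). In the panel of Dhcr7 the 3 genotypes do not overlap, from 23.9 to 27.0 CPM in WT to 36.2 to 40.8 CPM in FUN025/FUN025 libraries, and in the panel of Ebp all 3 overlap.

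Sqle encodes squalene epoxidase, which adds oxygen to squalene and is a rate-limiting step of the pathway. Its position in GRCm38 is chromosome 15, 59315077 to 59331192. Its levels were 71.3, 72.5, 68.4 and 67.5 CPM in the WT libraries and 98.8, 88.6, 98.7, 117 and 106 CPM in the FUN025/FUN025 libraries. In FUN025/+ libraries the lowest level was 78.2 CPM, the median 85.5 CPM and the highest 100.25 CPM. All mutant libraries were above all WT libraries, while the mutant genotypes overlapped. The log2 fold change against WT was 0.32 ± 0.075 (SE, adjusted p = 0.00901) in FUN025/+ and 0.54 ± 0.078 (SE, adjusted p = 1.48e-04) in FUN025/FUN025 eyecups.

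Lss encodes lanosterol synthase, which folds oxidosqualene into lanosterol. It lies on chromosome 10 from 76531588 to 76557138. Its levels were 34.9, 38.3, 32.1 and 32.1 CPM in the WT libraries and 56.2, 49.96, 49.2, 60.7 and 59.7 CPM in the FUN025/FUN025 libraries. In FUN025/+ libraries they ran from 38.3 CPM through a median of 43.0 CPM to 50.8 CPM. The lowest FUN025/+ library was just above the highest WT library, and 3 of 5 FUN025/FUN025 libraries were above every FUN025/+ library. Lss had the largest fold change of the 9 genes in FUN025/FUN025 eyecups, with a log2 fold change of 0.68 ± 0.085 (SE, adjusted p = 3.40e-05), against 0.36 ± 0.082 (SE, adjusted p = 0.00762) in FUN025/+ eyecups. With the muscle and photoreceptor covariates it was not the largest, at 0.66 against 0.82 for Cyp51. An antisense gene, 4930483K19Rik, covers 3.53% of its exon length, and without a stated strand setting the reads of that part cannot be told apart.

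Cyp51, the cytochrome P450 enzyme that removes a methyl group from lanosterol, lies on chromosome 5 from 4081145 to 4104746. It was at 43.4, 41.9, 35.1 and 44.9 CPM in the WT libraries and at 60.8, 56.3, 57.5, 64.5 and 68.7 CPM in the FUN025/FUN025 libraries. In FUN025/+ libraries it ran from 45.1 CPM through a median of 48.2 CPM to 62.7 CPM, so that the lowest FUN025/+ library was within 1 CPM of the highest WT library. Akap9, on the opposite strand, covers 3.76% of the exon length of Cyp51, where the same limit of strand holds. Cyp51 rose in FUN025/FUN025 eyecups by 0.58 ± 0.10 on the log2 scale (SE, adjusted p = 0.00114). Its rise of 0.32 ± 0.097 in FUN025/+ eyecups (SE, adjusted p = 0.0396) had the highest adjusted p of the 6 calls in that comparison. That call was lost with an adjusted p of 0.0542 to 0.109 when WT replicate 2, 3 or 4 or FUN025/+ replicate 5 or 6 was left out. It was also lost at 0.0520 to 0.137 in 5 other settings, among them the muscle and photoreceptor covariates. Over the alternatives other than leaving out a library, the log2 fold change ran from 0.20 to 0.58, the latter with those covariates.

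Msmo1 encodes the methylsterol monooxygenase that begins the removal of the next methyl groups. The gene, on chromosome 8 from 64718139 to 64733792, was at 69.9, 72.7, 66.2 and 77.1 CPM in the WT libraries. It was at 97.0, 86.5, 97.6, 118 and 107 CPM in the FUN025/FUN025 libraries, and at a lowest of 81.9, a median of 93.4 and a highest of 104 CPM in the FUN025/+ libraries. Every mutant library was above every WT library and the mutant genotypes largely overlapped. The log2 fold change was 0.39 ± 0.079 (SE, adjusted p = 0.00333) in FUN025/+ and 0.50 ± 0.082 (SE, adjusted p = 5.04e-04) in FUN025/FUN025 eyecups.

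Nsdhl, the sterol dehydrogenase that follows Msmo1 in the same step, lies on chromosome X from 72918557 to 72958514. It was at 21.4, 27.2, 23.3 and 25.97 CPM in the WT libraries, and at 20.7, 26.1 and 32.9 CPM as the lowest, median and highest of the FUN025/+ libraries. The FUN025/FUN025 libraries were at 36.8, 26.5, 29.1, 39.5 and 41.7 CPM. Libraries of the same genotype spread more for Nsdhl than for any other member in both mutant groups, with a coefficient of variation of 16.1% in FUN025/+ and 19.1% in FUN025/FUN025 libraries. Nsdhl was called in FUN025/FUN025 eyecups, with a log2 fold change of 0.50 ± 0.14 (SE, adjusted p = 0.0277). The call was lost, at an adjusted p of 0.0539 to 0.0697, when WT replicate 1, 3 or 4 or FUN025/FUN025 replicate 1, 4 or 5 was left out, and at 0.0547 to 0.420 in 4 other settings. In FUN025/+ eyecups the log2 fold change was 0.093 ± 0.14 (SE, adjusted p = 0.691), with a 95% interval of -0.20 to 0.38. Nsdhl and Ebp are X-linked and the mice were of both sexes. With the Xist level as a covariate, the fold change of Nsdhl in FUN025/FUN025 eyecups was 0.50 (adjusted p = 0.0345).

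Hsd17b7, the reductase that completes this step, lies on chromosome 1 from 169949535 to 169969241. It was at 19.6, 18.7, 18.6 and 20.6 CPM in the WT libraries and at 26.9, 21.2, 22.3, 29.0 and 28.2 CPM in the FUN025/FUN025 libraries. The FUN025/+ libraries lay close together, from 25.2 CPM through a median of 26.0 CPM to 28.3 CPM. Its log2 fold change of 0.44 ± 0.082 (SE, adjusted p = 0.00169) in FUN025/+ eyecups was the largest of the members in that comparison, though not with the muscle and photoreceptor covariates, where it was below those of 5 members. It was 0.40 ± 0.085 (SE, adjusted p = 0.00482) in FUN025/FUN025 eyecups. The FUN025/FUN025 libraries fell both below and above the FUN025/+ range.

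Ebp encodes the sterol isomerase that moves a double bond within the ring, and lies on chromosome X from 8185329 to 8193512. It was at 20.4, 23.4, 20.2 and 23.6 CPM in the WT libraries and at 21.6, 21.2, 22.2, 23.9 and 20.3 CPM in the FUN025/FUN025 libraries. In FUN025/+ libraries it ran from 19.9 CPM through a median of 22.6 CPM to 23.7 CPM, and all 3 genotypes overlapped. The log2 fold change was 0.035 ± 0.071 (SE, adjusted p = 0.787) in FUN025/+ eyecups, with a 95% interval of -0.11 to 0.18. In FUN025/FUN025 eyecups it was -0.0014 ± 0.074 (SE, adjusted p = 0.993), with an interval of -0.16 to 0.15. The upper bounds of 0.18 and 0.15 lie below the fold changes of 6 and 8 of the other members. With the muscle and photoreceptor covariates Ebp was at 0.27 and 0.21, past both bounds, and was not called. The difference between Ebp and the other members was not tested.

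Sc5d, the desaturase that sets a further double bond in the ring, lies on chromosome 9 from 42251595 to 42264256. It was at 79.7, 69.5, 73.4 and 73.1 CPM in the WT libraries and at 91.6, 79.1, 84.0, 90.3 and 95.1 CPM in the FUN025/FUN025 libraries. The FUN025/+ libraries ran from 74.9 CPM through a median of 81.7 CPM to 90.9 CPM. WT replicate 1 lay inside the range of both mutant genotypes. The rise in FUN025/FUN025 eyecups was 0.25 ± 0.068 on the log2 scale (SE, adjusted p = 0.0198), and was the smallest of the 8 calls. It missed the threshold without WT replicate 2 (adjusted p = 0.0544), without FUN025/FUN025 replicate 5 (adjusted p = 0.0519) with an offset for GC content (adjusted p = 0.130) and with the muscle and photoreceptor covariates (adjusted p = 0.514). In FUN025/+ eyecups the log2 fold change was 0.16 ± 0.066 (SE, adjusted p = 0.101), with a 95% interval of 0.027 to 0.30. Under the alternatives other than leaving out a library it ran from 0.085 to 0.18.

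Dhcr7, the reductase that turns 7-dehydrocholesterol into cholesterol in the final step of one branch, lies on chromosome 7 from 143823145 to 143848410. It was at 26.2, 23.9, 24.4 and 26.97 CPM in the WT libraries and at 36.8, 39.8, 39.7, 40.8 and 36.2 CPM in the FUN025/FUN025 libraries. The FUN025/+ libraries ran from 27.5 CPM through a median of 31.6 CPM to 32.4 CPM. The 3 genotypes formed 3 separate ranges, with the heterozygous libraries between the WT and homozygous ones. The log2 fold change against WT was 0.28 ± 0.060 (SE, adjusted p = 0.00417) in FUN025/+ and 0.61 ± 0.062 (SE, adjusted p = 3.07e-06) in FUN025/FUN025 eyecups.

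To ask whether the second mutant allele adds to the first, FUN025/FUN025 eyecups were compared with FUN025/+ eyecups. Dhcr7 was the only member called, with a log2 fold change of 0.32 ± 0.056 (SE, adjusted p = 0.00640), while 0.327% of all genes tested were called higher. For Dhcr7, 1 of 9 members, every FUN025/FUN025 library was above every FUN025/+ library, which held for 0.627% of all genes tested. The median log2 fold change of the members was 0.22, against -0.0040 over all genes, and 7 of 9 were higher in homozygous eyecups. Lss, at 0.32 ± 0.076 (SE, adjusted p = 0.0748), and Nsdhl, at 0.41 ± 0.13 (SE, adjusted p = 0.361), missed the threshold, and their 95% intervals were 0.16 to 0.48 and 0.14 to 0.68. Lss passed without FUN025/+ replicate 1 (adjusted p = 0.0232), with DESeq2 (adjusted p = 0.0180) and without a filter on low counts (adjusted p = 0.0152), each with 2 members called. Hsd17b7 and Ebp were at -0.047 and -0.036, with intervals of -0.21 to 0.12 and -0.18 to 0.11.

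A pair of further contrasts describes the dependence on the number of mutant alleles. The level of FUN025/+ eyecups was set against the midpoint of WT and FUN025/FUN025 eyecups on the log2 scale, and 0 of 9 members were called by edgeR's quasi-likelihood test, against 1.95% of all genes. At an unadjusted p under 0.05 there were 2, and DESeq2 called 1. Hsd17b7 was the member farthest above the midpoint, by 0.25 ± 0.067 (SE, adjusted p = 0.0649), and Nsdhl the farthest below, at -0.16 ± 0.11 (SE, adjusted p = 0.526). Dhcr7, at -0.019, and Lss, at 0.017, lay close to the midpoint. In a limma fit of a line on the number of mutant alleles, 8 of 9 members had a rising slope at an adjusted p under 0.05, against 4.35% of all genes tested. The slopes of the 8 ran from 0.12 for Sc5d (adjusted p = 0.0329) to 0.34 for Lss (adjusted p = 1.26e-04) on the log2 scale, and that of Dhcr7 was 0.30 (adjusted p = 2.79e-05). Hsd17b7 and Nsdhl passed narrowly, with adjusted p-values of 0.0491 and 0.0442. A step from WT to both mutant genotypes can also give such a slope, so the fit does not show a rise with each allele. Hsd17b7 and Msmo1 were at -0.047 and 0.11 between the mutant genotypes and were not called there. The number with a rising slope was 5 when WT replicate 3, WT replicate 4, FUN025/FUN025 replicate 1 or FUN025/FUN025 replicate 5 was left out.

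**Figure D3:**
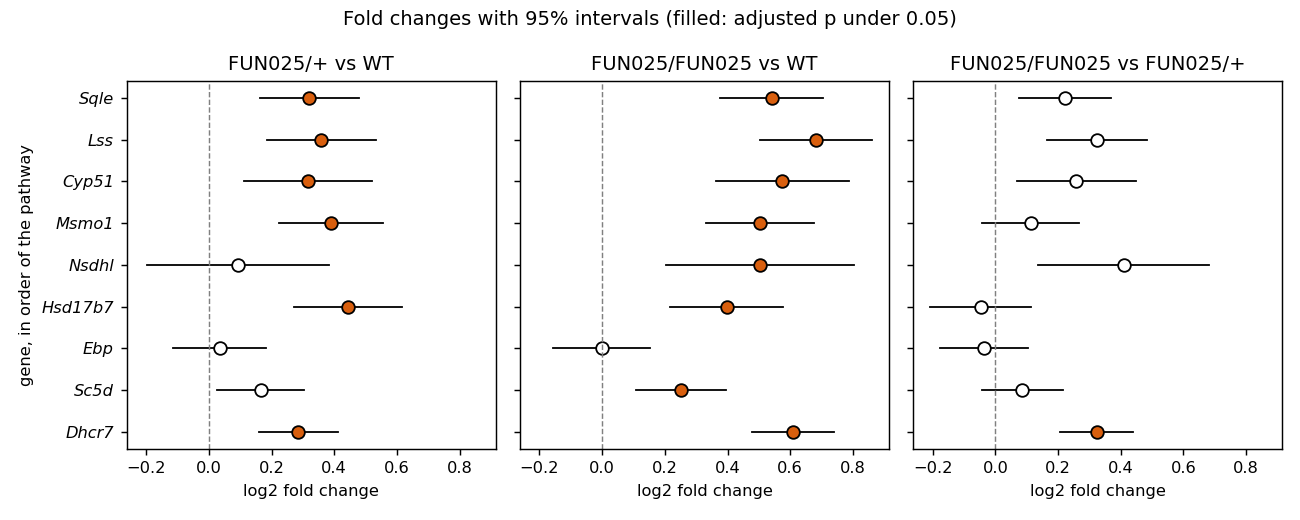
Log2 fold changes of the 9 genes, in pathway order on the y axis, in 3 comparisons, with 95% intervals as lines and filled points for an adjusted p under 0.05. Among the points against WT only those of Ebp lie near 0 in both panels, at 0.035 and -0.0014, and only Dhcr7 is filled in the comparison of the mutant genotypes.

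Levels of different genes were compared per kilobase of merged exon length. In WT eyecups the order was Sc5d with 15.2 CPM per kilobase, Sqle with 12.6, Msmo1 with 11.6, Ebp with 9.47, Cyp51 with 9.36, Nsdhl with 8.58, Dhcr7 with 4.36, Hsd17b7 with 3.80 and Lss with 3.18 CPM per kilobase. The libraries of Sqle and Msmo1 overlapped on this scale, as did those of Ebp, Cyp51 and Nsdhl, and the other neighbours did not overlap. In FUN025/FUN025 eyecups Ebp, at 9.46 CPM per kilobase, lay below Cyp51 at 13.9 and Nsdhl at 12.2 CPM per kilobase, and the libraries of Ebp, from 8.80 to 10.4, did not overlap those of Cyp51, from 12.8 to 15.6 CPM per kilobase, but overlapped those of Nsdhl, from 9.28 to 14.6 CPM per kilobase. The order rests on the length used. Per kilobase of the principal transcript, a length chosen after seeing the data, Msmo1 came first in WT eyecups with 34.97 CPM per kilobase, before Sqle with 25.4 and Sc5d with 15.4 CPM per kilobase, and Hsd17b7 came last with 4.20 CPM per kilobase.

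Libraries of the same genotype also differed together across the members. FUN025/FUN025 replicate 4 was above its genotype mean for all 9 genes, by 0.14 on average on the log2 scale, and FUN025/+ replicate 6 was above it for 8 of 9, by 0.15 on average. WT replicate 3 was below its genotype mean for all 9 genes, and FUN025/FUN025 replicate 2 for 8 of 9, with a mean deviation of -0.16. As a description over deviations of the 15 libraries from their genotype means, the 36 pairs of members had a median Pearson r of 0.42, from -0.27 for Lss with Dhcr7 to 0.79 for Sqle with Nsdhl, and 33 pairs were positive. The values of a library share its RNA and its scaling. No other genes or pairs of genes were set beside these values, so whether they are particular to the members was not tested. Nsdhl, Sqle, Cyp51 and Msmo1 followed the mean of the other 8 members most closely, with r of 0.85, 0.82, 0.78 and 0.75. Dhcr7, which separated the genotypes, had an r of 0.049 with the other 8 within genotypes, and Ebp, which did not separate them, one of 0.47.

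**Figure D4:**
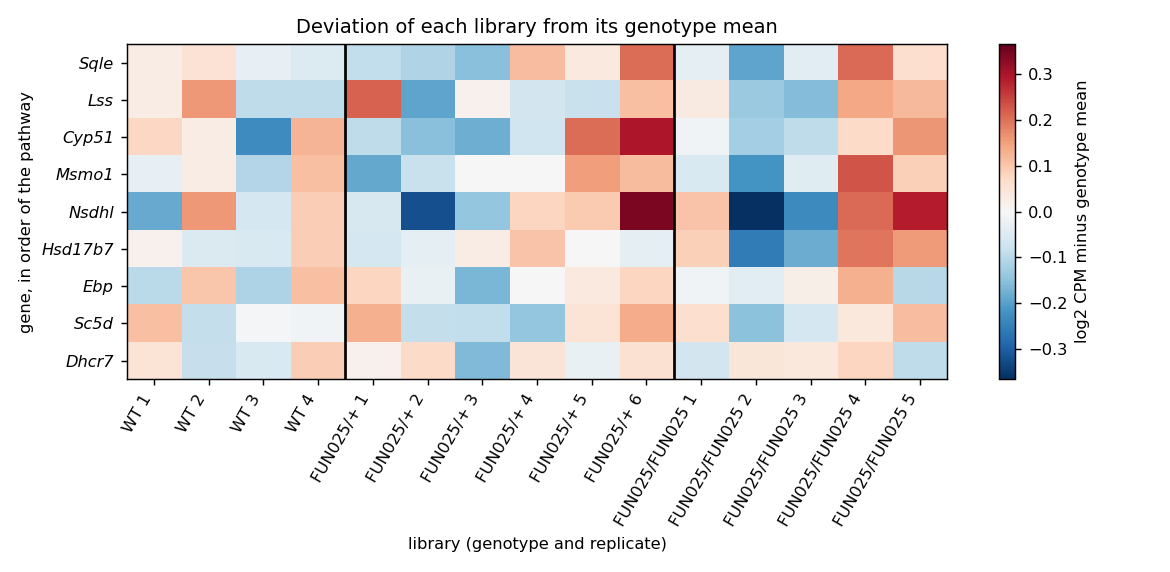
Deviation of each library's log2 CPM from the mean of its genotype, with the 15 libraries on the x axis and the 9 genes on the y axis. Red is above and blue below the mean, and the vertical lines part the genotypes. The column of FUN025/FUN025 replicate 4 is above the mean for 9 of 9 genes, and the rows of Sqle and Nsdhl vary alike, with an r of 0.79.

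The genes that lead from acetyl-CoA to squalene were followed in the same way. Of these 9 genes, 2 rose in FUN025/+ and 6 rose in FUN025/FUN025 eyecups, none fell, and their median log2 fold changes were 0.21 and 0.41. The shares of all genes tested that were called higher were 7.09% and 7.03%. Idi1, which isomerises the isoprene unit, was at 13.4 ± 1.77 CPM (SD, n = 4) in WT, 21.1 ± 3.41 CPM (SD, n = 6) in FUN025/+ and 25.2 ± 1.28 CPM (SD, n = 5) in homozygous eyecups, the latter a log2 fold change of 0.91 ± 0.11 (SE, adjusted p = 3.48e-05). Hmgcs1, the synthase of hydroxymethylglutaryl-CoA, rose in both mutant genotypes, by 0.45 (adjusted p = 0.00248) and 0.67 (adjusted p = 9.93e-05) on the log2 scale. The smallest differences in FUN025/FUN025 eyecups were those of Mvk, mevalonate kinase, at 0.11 (adjusted p = 0.573), and of Fdft1, which makes squalene, at 0.23 (adjusted p = 0.0285). Fdps, at 0.68 ± 0.30 (SE, adjusted p = 0.137), was listed at only 1.91 CPM in WT eyecups. Fdps has near-identical copies in the mouse genome, so its counts are uncertain. Between the mutant genotypes 0 of the 9 genes were called by edgeR, with a median log2 fold change of 0.18.

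Of 7 genes of the SREBP machinery, 2 rose in FUN025/+ and 4 in FUN025/FUN025 eyecups, and none fell, beside 7.09% and 7.03% of all genes tested called higher. Insig1, a sterol-controlled gene whose protein holds SREBP in the membrane, was at 75.9 ± 11.3 CPM (SD, n = 4) in WT, 114 ± 9.70 CPM (SD, n = 6) in FUN025/+ and 177 ± 18.7 CPM (SD, n = 5) in homozygous eyecups. Its log2 fold changes were 0.58 (adjusted p = 6.88e-04) and 1.22 (adjusted p = 5.05e-07) against WT and 0.64 (adjusted p = 7.28e-04) between the mutant genotypes. Srebf1, which encodes the SREBP that mainly serves fatty acid synthesis, was at 166 ± 17.3 CPM in WT (SD, n = 4), 176 ± 13.9 CPM in FUN025/+ (SD, n = 6) and 278 ± 19.1 CPM in FUN025/FUN025 eyecups (SD, n = 5). It was called in the last group alone against WT (0.74, adjusted p = 2.83e-06), and also between the mutant genotypes (0.66, adjusted p = 1.47e-05). Srebf2, which encodes the SREBP that mainly serves cholesterol synthesis, rose by 0.27 (adjusted p = 0.0148) in FUN025/FUN025 eyecups and was at 0.11 (adjusted p = 0.301) in FUN025/+ eyecups. Mbtps2, one of the proteases that release SREBP, was called in both mutant genotypes, at 0.25 (adjusted p = 0.00373) and 0.18 (adjusted p = 0.0265).

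Of 11 genes for electron donors and partner proteins of the sterol enzymes, 2 rose and 1 fell in FUN025/+ eyecups. In FUN025/FUN025 eyecups 4 rose and 2 fell. Of all genes tested, 7.09% and 7.03% were called higher in the same order, and 6.61% and 7.02% lower. The medians of the 11 genes, 0.013 and -0.022, were near those of all genes. Erg28, a scaffold for the enzymes of methyl group removal, rose by 0.33 (adjusted p = 0.00797) in FUN025/FUN025 eyecups, and Cyb5r3, a reductase of cytochrome b5, by 0.21 (adjusted p = 0.00546). Cyb5a, the cytochrome b5 that passes electrons to sterol oxidases, was lower in both mutant genotypes, at -0.29 (adjusted p = 9.46e-04) and -0.31 (adjusted p = 7.68e-04). Pgrmc1, a haem-binding partner of cytochrome P450 enzymes, fell by 0.13 (adjusted p = 0.0457) in FUN025/FUN025 eyecups. Por, the reductase that supplies cytochrome P450 enzymes and squalene epoxidase, was at -0.022 (adjusted p = 0.859), and Sec14l2, a lipid transfer protein that stimulates squalene epoxidase, at -0.24 (adjusted p = 0.194).

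**Figure D5:**
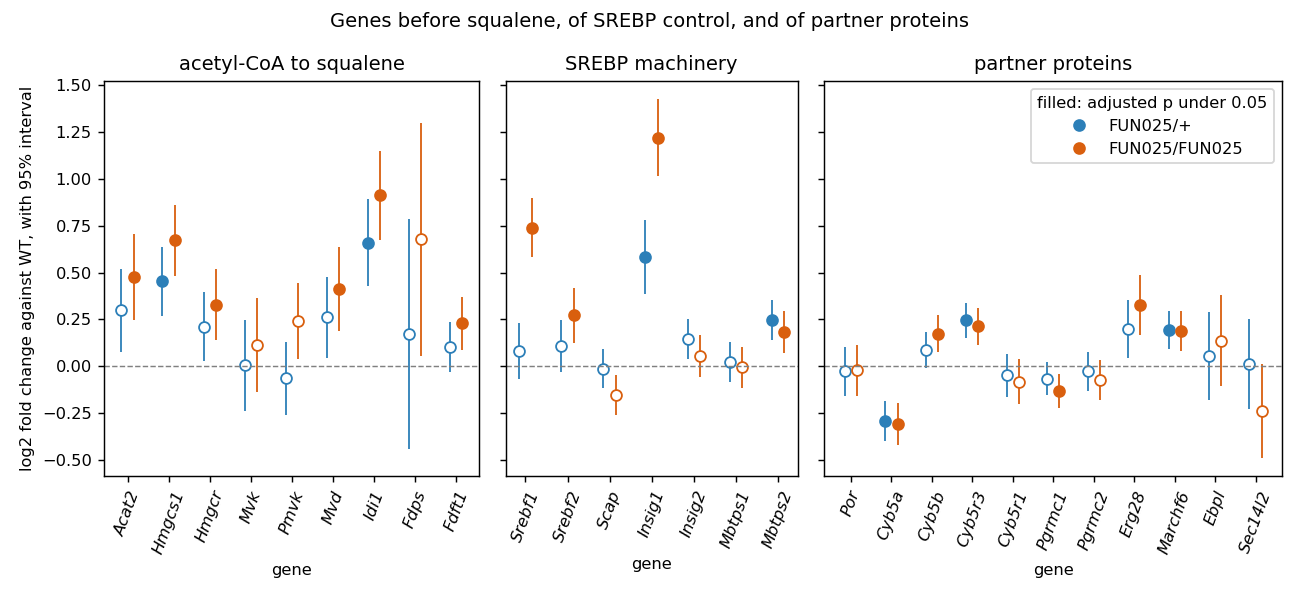
Log2 fold changes against WT on the y axis with 95% intervals, for the genes before squalene, of the SREBP machinery and of partner proteins on the x axis, in FUN025/+ (blue) and FUN025/FUN025 (orange) eyecups, with filled points for an adjusted p under 0.05. Insig1 has the highest point, at 1.22, and Cyb5a the lowest, at -0.31, both in FUN025/FUN025 eyecups.

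As a measure of likeness, each of 14468 protein-coding genes with a mean of at least 1 CPM was correlated over the 15 libraries with the mean of the standardised log2 CPM of the 9 members. The members' mean differs between genotypes, so this likeness includes any gene that differs between them in the same order. The 5 genes most like the members were Hmgcs1 with an r of 0.93, Insig1 with 0.91, Srebf2 with 0.90, the mitochondrial citrate carrier Slc25a1 with 0.88 and the sterol transfer protein Stard4 with 0.86. Stard4 was called in FUN025/+ (0.48, adjusted p = 0.00159) and FUN025/FUN025 eyecups (0.73, adjusted p = 3.40e-05). On deviations from the genotype means, the 5 most like were Zbtb21 with an r of 0.92, Csrnp2 with 0.88, Mrln with 0.87, Dnase1l2 with 0.87 and Srebf2 with 0.87, and of these only Srebf2 was called in any of the 3 pairwise comparisons. Srebf2 was thus the gene among the 5 by both measures, which use the same 15 libraries and so are not independent. How high an r the best of 14468 genes reach by chance was not tested.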

How the data were processed

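The authors deposited raw counts of reads per gene, without normalization, for 1 poly(A)-selected, paired-end library per mouse. The submitters' processing notes name FastQC 0.11.8, Trimmomatic 0.39, HISAT2 2.1.0, SAMtools, featureCounts 2.0.0 and GRCm38. Strand and multi-mapping settings were not given in the sources used here. Symbols and positions came from GENCODE M21 (55240 of 55421 genes). After removal of the 15% of genes with the lowest variance and edgeR's filterByExpr, 18979 genes were fitted with edgeR 4.0.16 (TMM scaling, robust quasi-likelihood, all 15 mice, genotype only) and Benjamini-Hochberg adjustment over all of them. Trends used limma 3.58.1 on log2 CPM (prior count 2). Intervals are 95% intervals of the fit. Scripts were tested on simulated data. Alternatives were other scalings, DESeq2 1.42.0, limma-voom, filters, thinned depth, marker and Xist covariates, a replicate block and leaving out each mouse.

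Members and lists were chosen with earlier results of these data known, and 1 gene of the rule is not reported here. All 9 members were named. Of the lists, genes called between mutant genotypes were named, or else those with the 2 highest and 2 lowest log2 fold changes, by sign, between FUN025/FUN025 and WT. Others were named after their values were seen: Hmgcs1, Srebf2, Mbtps2, Pgrmc1 and Por. The 5 genes most like the members by each measure were named.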

Additional observations from a re-analysis of the deposited data

How the results depend on the processing

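Of 810 log2 fold changes of single members under the alternatives, 752 kept their direction and their side of the threshold. The 810 include members not called in the main fit, and a setting without the variance filter that left their values the same. Calls of the main fit were lost 13 times with a library left out and 18 times in the other settings. Members called between FUN025/FUN025 and FUN025/+ eyecups numbered 2 with DESeq2 and without a filter on low counts (Dhcr7 and Lss) and 2 with a replicate block (Dhcr7 and Cyp51), and 5 at an unadjusted p under 0.05. Against the midpoint there were 1 with DESeq2 and 2 at an unadjusted p. With muscle and photoreceptor marker levels as covariates, 0 were called in FUN025/+ and 4 in FUN025/FUN025 eyecups, with a median of 0.66 in the latter, and the cause was not tested. Leaving out each library in turn gave 5 to 6 members called in FUN025/+, 6 to 8 in FUN025/FUN025, 1 to 2 between the mutant genotypes, 0 to 1 against the midpoint and 5 to 8 with a trend.

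Ebp in FUN025/FUN025 against WT, at -0.0014, changed sign to 0.0022 (RLE scaling), 0.016 (upper quartile), 0.0028 (DESeq2), 0.0030 (limma-voom), 9.85e-04 (at least 10 counts in every library), 0.0021 (only the genotypes compared), 0.0060 (replicate block), 0.0012 (thinned depth) and 0.21 (muscle and photoreceptor covariates), and ran from -0.035 to 0.042 with each library left out. It was called in none of them. Nsdhl in FUN025/+ was at -0.049 with the replicate block, and Hsd17b7 between the mutant genotypes ran from -0.091 to 0.014 with each library left out. Same-numbered mice are different animals, with mean correlations of deviations of -0.25, -0.067 and 0.055, so the block joins mice by number alone. Thinning every library to 10903183 counts, the shallowest total, lost 1 call among the members, that of Cyp51 in FUN025/+ eyecups (adjusted p = 0.0520). The offset for GC content, the unadjusted p and the principal transcript length were added after seeing the data.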
